A study of Mus musculus with 6 samples.

Results

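Endothelin and nitric oxide cGMP signalling was examined in the mouse aorta through 9 genes: Edn1, Ece1, Ednra, Ednrb, Nos3, Gucy1a1, Gucy1b1, Prkg1 and Pde5a. The genes were listed with earlier results of these data known. Their probe sets were then chosen by annotation, not by their values: a probe set was taken when the only gene symbol it carried was one of the 9. This gave 11 of the 22626 probe sets of the array, and 7 of the 9 genes. Ednra, the endothelin receptor of vascular smooth muscle, and Pde5a, the phosphodiesterase that breaks down cGMP, matched no such probe set and are not analysed here. No probe set of the 7 genes passed the test of the diets after adjustment over the whole array. The subunits of soluble guanylate cyclase, Gucy1a1 and Gucy1b1, had 4 probe sets between them, all with lower means on the high fat diet.

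The study compared male C57BL/6J mice, an inbred strain prone to obesity on a fat-rich diet, that ate either chow or a high fat diet. The sex was stated for 5 of the 6 samples and not for high fat replicate 1. Each diet had 3 arrays, and each array carried a pool of RNA from 3 aortas. The aortas were described as stripped of adventitia and of the fat around the vessel. Each n of 3 therefore counts pools. The p-values take in the variation between pools together with that of array processing, which cannot be told apart here. Single mice were not measured. The high fat diet lasted 16 to 18 weeks and started at 10 weeks of age for high fat replicates 2 and 3. High fat replicate 1 was labelled with the same diet length and with an age of 16 to 20 weeks. That age does not match a diet of this length begun at 10 weeks, and what it refers to is not stated. An age of 26 to 28 weeks was given for chow replicates 2 and 3, and none for chow replicate 1. No genotype or drug distinguished the groups.

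Endothelin-1 is a vasoconstrictor peptide made mainly by endothelium, cut from its precursor by the endothelin converting enzyme and read by receptors on smooth muscle and endothelium. Nitric oxide works against it. The endothelial synthase Nos3 makes the gas, which diffuses into smooth muscle and activates soluble guanylate cyclase, a dimer of an alpha and a beta subunit that forms cGMP. The cGMP-dependent kinase Prkg1 then relaxes the muscle cell, and phosphodiesterases end the signal.

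Values are MAS5 signals, a linear brightness that summarises the probes of 1 probe set, scaled by the authors to the same trimmed mean on every array. Log2 fold changes are high fat minus chow on the scale log2(signal + 6), which understates the change of low genes. A probe set was tested with limma when its mean log2 value lay above the 40th percentile of the array, a signal of 40.7. The whole table gave 13575 tests, and 10 of them had an adjusted p under 0.05, which is 0.0737%, with 0.0368% lower and 0.0368% higher on high fat diet. Of the 11 member probe sets 10 were tested and 0 passed in limma. Of these 10, 1 had an unadjusted p under 0.05, against 7.03% of all probe sets tested. Full separation of the 3 high fat from the 3 chow arrays was seen for 1 of the 10, with high fat lower, against 12.3% of all probe sets tested (6.08% lower and 6.26% higher), so that the share of members is near the background. Their median log2 fold change was -0.0011, against -0.01 over all probe sets tested, with 5 higher and 5 lower. The median size of the difference, whatever its direction, was 0.29 for the members and 0.15 over all probe sets tested. The 10 probe sets come from 7 genes and are not independent. The pair of Gucy1a1 correlated at r = 0.79 and that of Gucy1b1 at r = 0.71, and each probe set counts in this median.

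**Figure D1:**
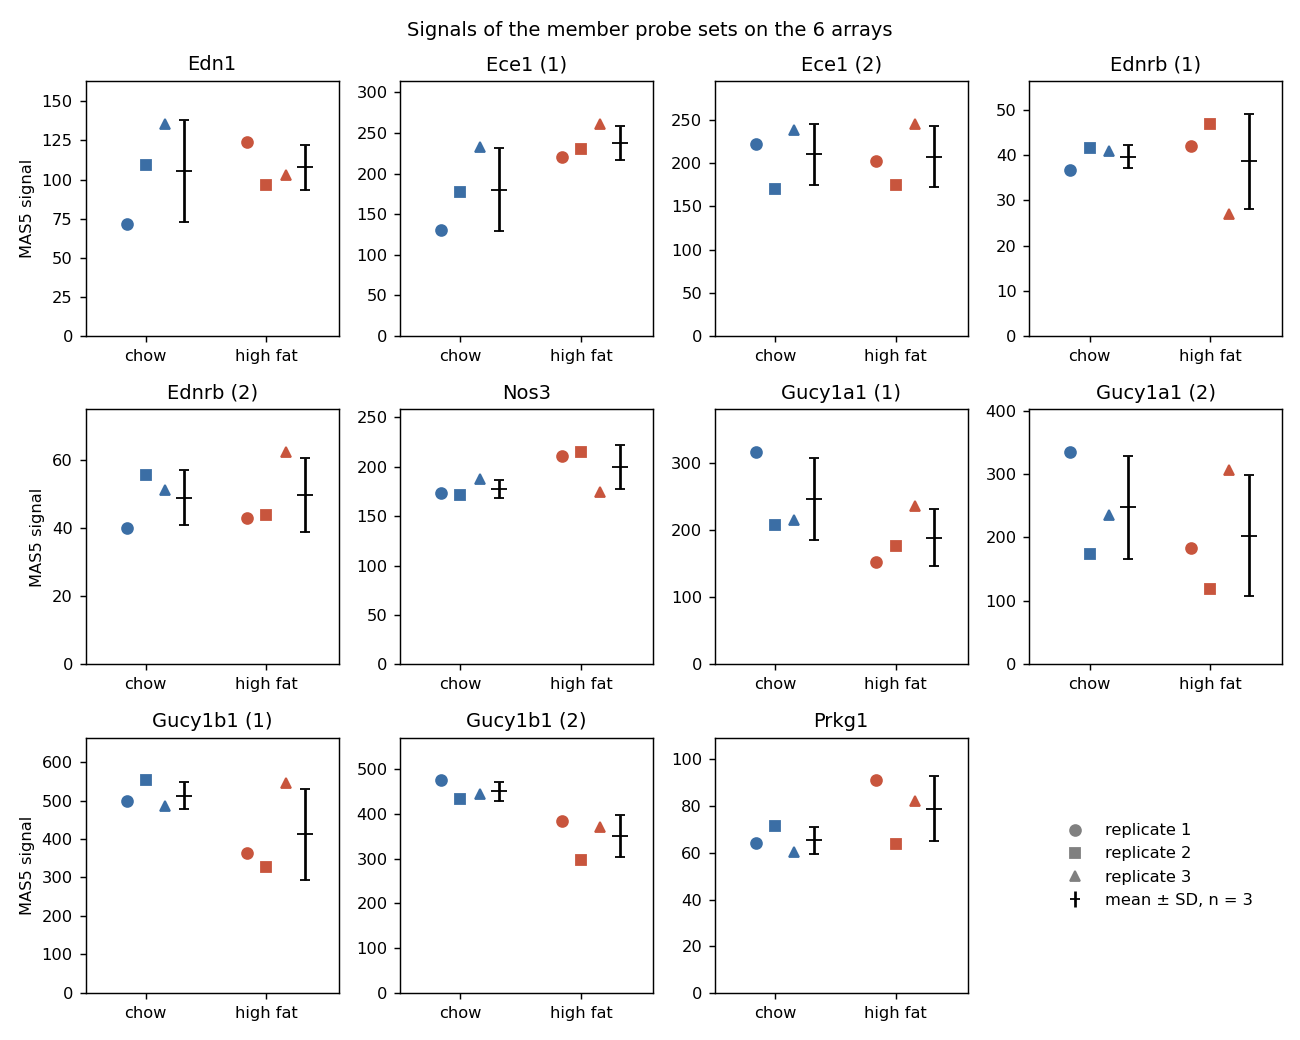
MAS5 signal (linear axis from 0) of each of the 11 member probe sets on the 3 chow arrays (blue) and the 3 high fat arrays (red), with symbols for the replicate number and a bar for the mean ± SD of n = 3 pools. Where a gene has 2 probe sets they are numbered in the order of the text; the second of Gucy1b1 is the panel in which all high fat arrays lie below all chow arrays.

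The ligand gene Edn1 had signals of 124.1, 96.5 and 102.8 on the high fat arrays and of 71.4, 109.4 and 135.8 on the chow arrays. All 3 high fat values lay inside the range of the chow values, whose lowest and highest arrays differed more from each other than the diets did. The means were 107.8 ± 14.5 and 105.5 ± 32.4 (SD, n = 3 each), and the log2 fold change was 0.07 with a 95% interval from -0.45 to 0.58 (adjusted p = 0.965, limma). The direction of this small difference depended on the arrays used, since the log2 fold change was -0.18 without chow replicate 1 and -0.03 without high fat replicate 1.

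Ece1, the enzyme that releases mature endothelin-1 from its precursor, had a pair of probe sets that did not behave alike. The first had signals of 220.6, 230.5 and 261.6 on high fat diet and of 129.9, 177.6 and 232.1 on chow. Chow replicate 3 reached the level of the high fat arrays and the other chow arrays lay below all of them. Its means were 237.6 ± 21.4 and 179.9 ± 51.1 (SD, n = 3 each), with a log2 difference of 0.42 ± 0.21 (SE) that did not pass (adjusted p = 0.735, limma) and that was 0.22 without chow replicate 1. The second had 201.9, 174.9 and 245.7 on high fat diet against 221.9, 170.1 and 238.2 on chow, with fully mixed arrays and a log2 fold change of -0.02 (adjusted p = 0.989, limma). The difference between the log2 fold changes of these probe sets was 0.44, with an exact two-sided permutation p of 0.1, the smallest that 3 arrays against 3 can give. Over the 6 arrays the pair correlated at r = 0.17. With the mean of both as the value of the gene, Ece1 differed by 0.20 on the log2 scale (adjusted p = 0.799, limma). Which part of the transcript each probe set reads was not analysed here, so the values of the pair are given apart.

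Ednrb, the endothelin receptor of endothelium and of neural crest derived cells such as Schwann cells, lay in the range of low signals. Its first probe set had signals of 42.1, 47 and 26.9 on high fat diet and of 36.7, 41.5 and 40.9 on chow, and it fell under the limit for testing. Its second had 43, 44 and 62.4 on high fat diet and 40, 55.7 and 51.3 on chow. High fat replicate 3 was the lowest of the 6 arrays on the first probe set and the highest on the second, and the pair correlated at r = -0.59 over the 6 arrays. The log2 fold change of the tested probe set was 0.01 with a 95% interval from -0.51 to 0.54 (adjusted p = 0.993, limma). That of the other was -0.06 in the fit without a limit on low signals (adjusted p = 0.984, limma). Between 42.0% and 46.3% of the probe sets of an array had a signal under 50, and detection calls were not used here, so that these levels could not be separated from background.

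Nos3, the endothelial nitric oxide synthase, had signals of 210.7, 214.9 and 174.1 on high fat diet and of 173.5, 171.4 and 187.5 on chow. High fat replicates 1 and 2 lay above all chow arrays and high fat replicate 3 lay among them. The means were 199.9 ± 22.4 and 177.5 ± 8.8 (SD, n = 3 each), and the log2 fold change was 0.16 with a 95% interval from -0.18 to 0.51 (adjusted p = 0.864, limma). In linear terms that interval runs from 0.881 to 1.42 times the chow level. It kept its sign in the 16 alternatives run, with log2 fold changes from 0.11 to 0.26.

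Soluble guanylate cyclase, the receptor of nitric oxide, is a dimer of the products of Gucy1a1 and Gucy1b1. The first probe set of Gucy1a1, the alpha subunit, had signals of 152.9, 176.8 and 236.2 on high fat diet and of 315.9, 206.7 and 214.5 on chow. High fat replicates 1 and 2 lay below all chow arrays, and high fat replicate 3 lay between chow replicates 3 and 1. The means were 188.6 ± 42.9 and 245.7 ± 60.9 (SD, n = 3 each), and the log2 fold change was -0.37 with a 95% interval from -0.84 to 0.10 (adjusted p = 0.773, limma). The second probe set had 183.1, 119.5 and 306.5 on high fat diet against 334.7, 173.5 and 235.0 on chow. High fat replicate 3 was again the highest of its diet, and high fat replicate 2 alone lay below all chow arrays. The log2 fold change was -0.33 ± 0.32 (SE, adjusted p = 0.864, limma). Leaving out high fat replicate 2 brought it to -0.01, leaving out chow replicate 1 to -0.09 and leaving out high fat replicate 3 to -0.67.

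Gucy1b1, the beta subunit that carries the heme to which nitric oxide binds, had signals of 364.1, 326.0 and 546.4 on high fat diet and of 498.1, 552.2 and 487.1 on chow for its first probe set. As for Gucy1a1, high fat replicates 1 and 2 lay below all chow arrays and high fat replicate 3 did not. The means were 412.2 ± 117.8 and 512.5 ± 34.8 (SD, n = 3 each), and the log2 fold change was -0.34 with a 95% interval from -0.76 to 0.08 (adjusted p = 0.752, limma). The second probe set had 383.7, 296.6 and 370.1 on high fat diet and 474.2, 433.1 and 443.2 on chow. This was the single member probe set whose diets did not overlap, and the single one with an unadjusted p under 0.05 (0.0332). The means were 350.1 ± 46.9 and 450.2 ± 21.4, a ratio of 0.778 and a log2 fold change of -0.36 with a 95% interval from -0.69 to -0.04, which did not pass over the whole array (adjusted p = 0.665, limma). With the mean of both probe sets as the value of the gene, the log2 fold change was -0.35 for Gucy1a1 (adjusted p = 0.762, limma) and -0.35 for Gucy1b1 (adjusted p = 0.615, limma). Each of the 4 probe sets kept its negative sign in all 16 alternatives run, leaving out single arrays included, and none passed in any of them, the smallest adjusted p being 0.514. Their size depended on single arrays. The first Gucy1a1 probe set had -0.18 without chow replicate 1, and its value was -0.23 when high fat replicate 1 was left out. The first Gucy1b1 probe set had -0.20 when high fat replicate 2 was left out, and -0.56 when the third high fat array was.

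**Figure D2:**
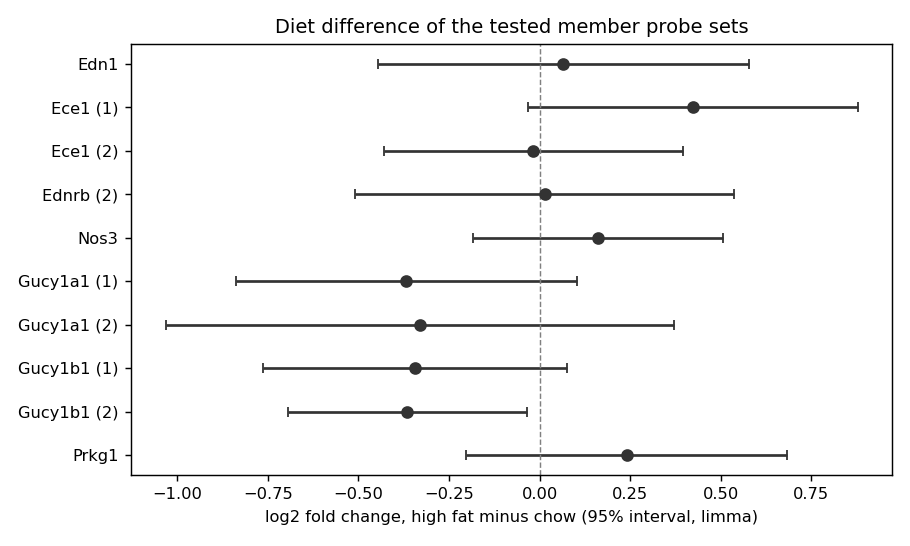
Log2 fold change, high fat minus chow, of the 10 tested member probe sets with the 95% interval from limma (3 arrays per diet); the dashed line marks no difference. The interval of the second Gucy1b1 probe set, from -0.69 to -0.04, is the one that leaves out 0, and its adjusted p is 0.665.

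The 2 subunit genes are neighbours on mouse chromosome 3, with no other gene between them in the RefSeq annotation. The balance of the alpha and the beta subunit was compared within each array. The log2 difference of Gucy1a1 minus Gucy1b1 within an array, from the probe set of highest mean of each, was -0.97, -1.40 and -0.82 on high fat diet and -0.57, -1.64 and -1.03 on chow, values that are fully mixed and whose level has no meaning across probe sets. Their means differed by 0.01 between diets (exact two-sided permutation p = 1), while the chow arrays themselves spread over more than 1 log2 unit. The difference ran from -0.27 without chow replicate 2 to 0.27 without chow replicate 1, so that its direction rested on single arrays. With 3 arrays against 3 the exact permutation test cannot give p below 0.1 for a shift of any size. The lowest differences were on high fat replicate 2 and chow replicate 2. These arrays had the highest ratios of 3′ to 5′ actin signal, a measure of RNA integrity, at 1.94 and 1.79 against 1.27 to 1.56. For Gapdh the ratios were 1.07 and 1.38 against 0.89 to 1.18, and the part of RNA quality was not tested. The signals of the subunits over the 6 arrays correlated at r = 0.70 and rho = 0.37, with exact permutation p-values of 0.139 and 0.497, and r was -0.36 over the 4 arrays left without high fat replicates 1 and 2, so that the relation rests on those arrays.

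As a description, the 250 bases before the start of Gucy1b1 are shown, from the RefSeq promoter windows (GRCm38.p6, chr3:82074712-82074961, minus strand, 5′ to 3′). Gucy1a1 has windows of its own elsewhere on the chromosome. The part of this sequence in the values of either gene was not tested. Capitals mark the GC box, GGGCGG, and the CCAAT box, CCAAT, which here reads ATTGG since it lies on the opposite strand.
Gucy1b1: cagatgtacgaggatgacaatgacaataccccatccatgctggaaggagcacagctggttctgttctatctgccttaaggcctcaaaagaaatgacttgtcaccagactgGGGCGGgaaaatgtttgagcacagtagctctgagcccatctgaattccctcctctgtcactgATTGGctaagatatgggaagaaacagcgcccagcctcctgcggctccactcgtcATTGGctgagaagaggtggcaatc
Both strands were searched. This stretch holds 1 GC box, which 32.7% of all 32851 such windows hold, and 2 CCAAT boxes, a motif that 33.8% hold. The motif TATAAA, present in 12.4% of windows, and the CArG box, the binding motif of serum response factor in smooth muscle genes, present in 1.47%, were not found in it. The pair of windows of Gucy1a1 overlap its annotated span and are not printed. The one farther upstream holds 1 GC box and the other holds none, and none of the other motifs was found in either. A match is a description of letters and not a site of binding, and 8 of the 9 genes had a window, Nos3 being the one that did not.

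Prkg1, the cGMP-dependent kinase that lowers calcium and calcium sensitivity in smooth muscle, had signals of 91.0, 63.8 and 82.1 on high fat diet and of 64.1, 71.6 and 60.4 on chow. High fat replicates 1 and 3 lay above all chow arrays and high fat replicate 2 lay among them. The means were 79.0 ± 13.9 and 65.4 ± 5.7 (SD, n = 3 each), and the log2 fold change was 0.24 with a 95% interval from -0.20 to 0.68 (adjusted p = 0.843, limma). It was 0.14 without high fat replicate 1. These signals are low, and the probe set was not tested under the filter at the 60th percentile.

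The cell types of these pools were checked through marker lists. The smooth muscle list was led by Acta2, Tagln and Myh11, at mean signals of 8709, 6156 and 3787 on chow, and the endothelial list by Eng, Pecam1 and Esam, at 383.9, 328.6 and 288.5. The brown adipocyte genes Ucp1, Cox8b and Cidea also had high signals, 2479, 1984 and 1912 on chow. So had the white adipocyte genes Fabp4, Adipoq and Pnpla2, at 3742, 1794 and 1755. The fibroblast genes Dcn, Col3a1 and Dpt had 4173, 2466 and 1296. Fat genes were thus read in pools described as stripped of fat, and the source of that RNA was not tested. On high fat diet 13 of 15 endothelial markers had the higher mean (mean log2 difference 0.27), and 2 of 11 smooth muscle markers had (-0.14). Summed signals ran from 2473 to 3000 on high fat diet and from 2320 to 2475 on chow for the endothelial list, and from 25146 to 25933 and from 24569 to 30035 for the smooth muscle list. All 6 brown adipocyte markers had higher means, with summed signals of 9852 to 12094 against 6344 to 8499, as had 7 of 8 macrophage markers, with 2912 to 4689 against 2147 to 2830. All 10 cardiac markers had higher means, and their sums ran from 998.4 to 7050 on high fat diet and from 967.5 to 3597 on chow. Of 7 white adipocyte markers 6 had higher means, and the other, Retn, the adipokine resistin, was the single marker that passed, at 216.9 ± 1.3 on high fat diet against 464 ± 70.7 on chow (log2 fold change -1.06, adjusted p = 0.0435, limma). It is named here after its values were seen. White adipocyte sums overlapped between the diets, at 8915 to 9570 against 7649 to 10148, as did those of skeletal muscle, at 291.9 to 588.3 against 376.6 to 918.4, and those of the nerve and Schwann cell list, at 1411 to 1767 against 1312 to 1598. Of 7 skeletal muscle markers 1 had a higher mean on high fat diet, with a mean log2 difference of -0.75, and 0 of the 4 tested passed. The mean of log2 values of that list overlapped too, with deviations of -0.64 to -0.06 against -0.34 to 1.06. Fibroblast sums were 9787 to 10232 on high fat diet and 10295 to 11169 on chow. The sums, which the brightest genes carry, did not overlap between the diets for the brown adipocyte, macrophage and fibroblast lists. By the mean of log2 values, in which each gene counts alike, the diets did not overlap for the endothelial list (deviations of -0.02 to 0.25 against -0.17 to -0.10), the smooth muscle list (-0.15 to -0.03 against 0.0042 to 0.16), the nerve and Schwann cell list (-0.06 to 0.43 against -0.32 to -0.13), the brown adipocyte list (0.20 to 0.45 against -0.47 to -0.05) and the macrophage list (-0.04 to 0.52 against -0.42 to -0.12), and they overlapped for the fibroblast list, of which 3 of 7 genes had higher means. Of the 4 nerve and Schwann cell genes 3 had higher means, and S100b alone did not overlap between the diets. Its means were 177.7 ± 43.8 on high fat diet and 71.9 ± 4.2 on chow (SD, n = 3 each). The diets overlapped for Pmp22, Mbp and Sox10, and the mean of the list was not computed without S100b. No marker was at 0 on any array. The part of these cell types in the values of the 7 genes was not tested beyond what follows, and in such pools fewer cells of a type and less RNA per cell cannot be told apart.

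The members were also set against the mean of markers of endothelium or smooth muscle on the same array. Nos3 minus the endothelial mean within an array was 0.48, 0.42 and 0.39 on high fat diet and 0.54, 0.45 and 0.61 on chow. The mean difference was -0.11 (exact two-sided permutation p = 0.2), so that Nos3 had a higher mean signal on high fat diet while it was lower relative to the other endothelial genes, neither beyond the spread of the arrays. Edn1 minus the endothelial mean differed by -0.20 (exact two-sided permutation p = 0.4), with values from -0.69 to -0.26 on high fat diet and from -0.67 to 0.16 on chow. Leaving out chow replicate 1 made it -0.43, leaving out high fat replicate 2 gave -0.07, and leaving out chow replicate 3 gave -0.0089. Similar differences against the smooth muscle mean, and for Ece1 against the endothelial mean, were added after the data had been seen. By their probe sets of highest mean, Gucy1b1 differed by -0.20 (exact p = 0.4) against a log2 fold change of -0.34, and Gucy1a1 by -0.19 (exact p = 0.7) against -0.33. The value of Gucy1b1 depended on the high fat array left out, at -0.11 for replicate 1, -0.09 for replicate 2 and -0.40 for replicate 3. That of Gucy1a1 was 0.09 when either high fat replicate 2 or chow replicate 1 was left out, and it reached -0.50 when the third high fat array was. Ece1, by its second probe set, differed by -0.28 (exact p = 0.2), with -0.49 to -0.11 without single arrays (high fat replicates 3 and 2). With the mean of both Ece1 probe sets the difference was -0.08 (exact p = 0.5). Prkg1 minus the smooth muscle mean was -3.66, -4.01 and -3.80 on high fat diet and -4.17, -4.17 and -4.30 on chow. These do not overlap, and the difference of 0.39 has an exact two-sided permutation p of 0.1, the smallest possible here. After Benjamini-Hochberg adjustment over the 7 differences computed, it was 0.467. With quantile normalization the difference was 0.31 with an exact p of 0.2.

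**Figure D3:**
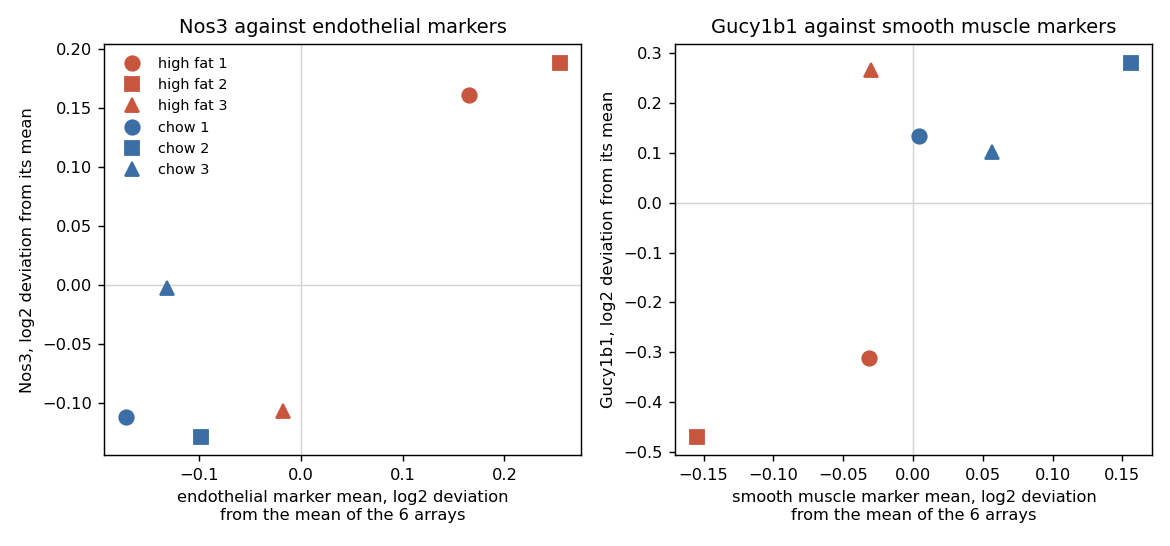
Left, Nos3 against the mean of 15 endothelial markers, and right, the first Gucy1b1 probe set against the mean of 11 smooth muscle markers, both axes as log2 deviations from the mean of the 6 arrays; each symbol is 1 array, red for high fat diet and blue for chow. High fat replicates 1 and 2 are highest for Nos3 and lowest for Gucy1b1, and high fat replicate 3 lies with the chow arrays on the vertical axis of both.

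Across the 6 arrays the largest relation among the members was between Nos3 and Gucy1b1, which ran opposite to each other at r = -0.97 and rho = -0.94 (exact permutation p = 0.00417 and 0.0167; 0.35 for r after Benjamini-Hochberg adjustment over the 84 relations computed). Each member was represented by its probe set of highest mean, which for Gucy1b1 is the first. The second Gucy1b1 probe set, which correlated with the first at r = 0.71, was not used in these relations. The relation of Nos3 and Gucy1b1 stood at r = -0.72 over the 4 arrays without high fat replicates 1 and 2. Nos3 followed the endothelial mean at r = 0.88 and rho = 0.71 (exact permutation p = 0.0347 and 0.136; 0.622 for r after adjustment), and r was -0.23 without the same 2 arrays, so this relation rests on them. Gucy1b1 followed the smooth muscle mean at r = 0.77 and rho = 0.77 (exact permutation p = 0.0597 and 0.103; 0.622 for r after adjustment), and r was 0.27 without chow replicate 2 and high fat replicate 2. The nerve and Schwann cell list, of which 4 of 8 genes were on the array, ran with Nos3 at r = 0.95 and rho = 0.89 (exact permutation p = 0.0194 and 0.0333; 0.622 for r after adjustment), and at r = 0.44 without high fat replicates 1 and 2. Gucy1b1 ran opposite to the nerve list at r = -0.92 (exact permutation p = 0.0333) and to the endothelial mean at r = -0.88 (exact permutation p = 0.0444). Without high fat replicates 1 and 2 these turned positive, at r = 0.13 and 0.75. Nos3 ran with the white adipocyte mean at r = 0.84 and rho = 0.89 (exact permutation p = 0.0667 and 0.0333), and at r = 0.93 without chow replicates 1 and 2. After adjustment p was 0.622 for each of these r. None of the 84 relations passed. With the mean of each diet taken out and arrays permuted within their diet, a calculation added after the data had been seen, r was -0.96 for Nos3 and Gucy1b1 (exact permutation p = 0.0278, the smallest possible, and 0.778 after adjustment over the 84). Likewise r was 0.86 for Nos3 and the endothelial mean (exact p = 0.167), 0.99 for Nos3 and the nerve list (exact p = 0.0556), 0.60 for Gucy1b1 and the smooth muscle mean (exact p = 0.306) and 0.67 for the cyclase subunits (exact p = 0.333), with adjusted values of 0.778 or more.

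The genes whose log2 signals ran most like those of each member over the 6 arrays are given as a description, from 8326 genes compared by the probe set of highest mean. For Nos3 they were Dmtn, Ptcd2 and Tnfrsf1b, with r of 0.995, 0.994 and 0.99, and 134 genes had r over 0.9. Gucy1b1 was matched by Tes, Dnttip2 and Plpp3 (r of 0.99 each), with 126 genes over 0.9, and Gucy1a1 by Thoc7, Ms4a4d and U2surp (0.99, 0.99 and 0.98), with 99. The nearest genes to Edn1 were Rassf3, Erich3 and Parp4, those to Ece1 were Dnttip1, Tmem70 and Csnk2a2, and those to Ednrb were Pdlim5, Acbd3 and Brd8, each with r of 0.98 or more. Prkg1 had Fbxo32, Pgpep1 and Ppp3cb, with r of 0.98 each, and 19 genes over 0.9. With 6 points many genes reach such values, and no list held another member.

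The rest of the pathways was followed through 79 further genes, of which 62 were matched on the array and 49 were tested by their probe set of highest mean. Of their 85 tested probe sets 0 passed over the whole array in limma, and 23 of the 49 genes had higher and 26 lower means, with a median log2 fold change of -0.04. An unadjusted p under 0.05 was reached by 7 of the 85, which is 8.24%, against 7.03% of all probe sets tested. All 7 were lower on high fat diet, where 3.11% of all probe sets tested had such a p with a lower mean and 3.92% with a higher one.

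The endothelin side of the list held no ligand that could be tested. Edn2, at 32.8 against 25.9, and both probe sets of Edn3, at 17.1 against 14.8 and at 8.9 against 7.7, lay under the limit. Of the 4 tested genes of ligand processing and clearance, Mme, the neutral endopeptidase neprilysin that degrades endothelin, had 104.8 ± 28.3 on high fat diet against 90.3 ± 15.2 on chow, and Kel, a related peptidase that can process endothelin-3, had 39.9 ± 16.5 against 46.3 ± 6.9. Among the 15 tested genes of receptor signalling, 8 had higher and 7 lower means. Plcb4, a phospholipase C, had 157.8 ± 42.0 against 190.4 ± 12.6, and Prkca, protein kinase C alpha, had 40.8 ± 10.2 against 53.1 ± 5.7 (log2 fold changes -0.29 and -0.36). Of this group, 3 probe sets had an unadjusted p under 0.05, of Rock1, Arhgef12 and Rhoa, which carry contraction signals through RhoA and are named here after their values were seen. Their log2 fold changes were -0.55, -0.52 and -0.52, with adjusted p of 0.580, 0.586 and 0.639 (limma), and other probe sets of these genes had -0.17, -0.11 and -0.03 for Rock1, 0.19 and 0.14 for Arhgef12, and -0.11 for Rhoa.

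Nitric oxide synthases and their regulators, Nos1 included, had lower means for 5 of 7 tested genes, with a median of -0.14. Akt1, a kinase that activates Nos3, had signals of 314.3, 299.4 and 340.3 on high fat diet and of 482.9, 407.1 and 371.7 on chow. These did not overlap, and the log2 fold change was -0.39 with an unadjusted p of 0.0256 that did not pass, while its second probe set had -0.06. Dynll1, a dynein light chain that binds the neuronal synthase, had 2469 ± 244 against 3015 ± 313 (log2 fold change -0.29, unadjusted p = 0.0432), with -0.30 and -0.19 for its other probe sets. Hsp90aa1, a chaperone that holds Nos3 in its active state, had a log2 fold change of -0.31 for the probe set with an unadjusted p under 0.05 and of -0.26 and -0.02 for the others. Cav1, which binds and restrains Nos3, had 2254 ± 311 against 2470 ± 229, and the inducible synthase Nos2 had a signal of 4.4 against 3.1 and was not tested. The neuronal synthase Nos1 had 51.7 ± 11.3 against 37.8 ± 9.7 on one probe set and 74.2 ± 37.6 against 50.6 ± 9.9 on the other, with log2 fold changes of 0.41 and 0.42 that did not pass.

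Among genes that supply arginine and tetrahydrobiopterin, the substrate and cofactor of nitric oxide synthases, or handle the methylarginines that inhibit them, 5 of 8 tested genes had higher means. Ddah2, which breaks down asymmetric dimethylarginine, had 435.7 ± 60.5 against 383.1 ± 119.5, and Prmt1, an arginine methyltransferase, had 167.2 ± 19.0 against 193.4 ± 51.0. The arginases Arg1 and Arg2 lay under the limit. Neither probe set of Prkg2, the other cGMP-dependent kinase, was tested. Of the phosphodiesterases, Pde1a, which is activated by calcium and calmodulin and breaks down cGMP in smooth muscle, had signals of 72.3, 55.1 and 51.4 on high fat diet and of 80, 97.8 and 82 on chow. All high fat arrays lay below all chow arrays, with a log2 fold change of -0.51 and a 95% interval from -0.95 to -0.06 (unadjusted p = 0.0301), which did not pass. Pde1b had 80.5 ± 23.3 against 71.7 ± 10.2. The other 3 tested genes of this group, Pde2a, Pde3a and Pde6d, had log2 fold changes between -0.08 and 0.10 by their probe set of highest mean.

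Targets of the cGMP kinase in smooth muscle had lower means for 7 of 10 tested genes, with a median of -0.18, where the median of the smooth muscle markers was -0.13. Crip1, a LIM domain protein of smooth muscle listed here with its relative Crip2, had 2450 ± 255 against 2852 ± 259, and Kcnmb1, the beta subunit of the large calcium-activated potassium channel, had 380.4 ± 18.4 against 471.1 ± 126.8 (log2 fold changes -0.22 and -0.27). Pln, phospholamban, whose log2 fold changes of 0.96, 0.73 and 0.63 were the highest of this group, had signals of 84.4, 552.4 and 445.1 on high fat diet and of 177.8, 273.9 and 54.1 on chow by its leading probe set. These were high in the same arrays as the cardiac markers, whose mean deviated by -1.15, 1.26 and 0.91 on high fat diet and by -0.16, 0.23 and -1.09 on chow, and the part of cardiac tissue in this value was not tested.

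**Figure D4:**
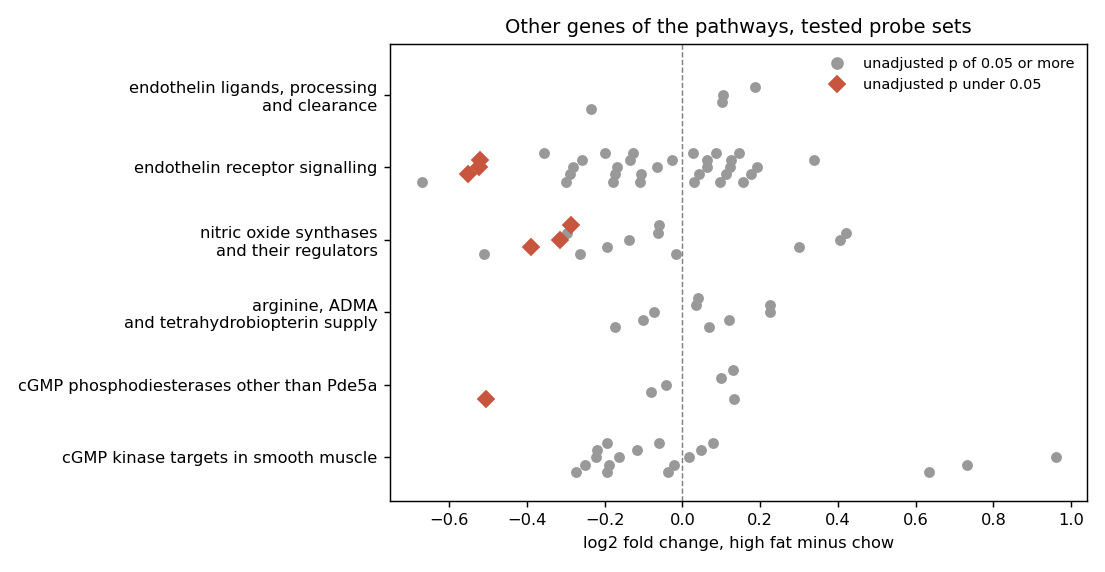
Log2 fold change, high fat minus chow, of the 85 tested probe sets of other endothelin and nitric oxide cGMP genes, 1 point per probe set, in rows by role; red diamonds mark an unadjusted p under 0.05 in limma. The 7 diamonds all lie below 0, none passed over the whole array, and the points to the far right are the 3 probe sets of Pln.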

How the data were processed

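The deposited table holds MAS5 intensity values for 6 arrays on a linear scale, as the submitters' processing notes name MAS5; no source used here gives its version or settings. The authors' scaling was kept, since the 2% trimmed mean was 150.05 on each array. Of 22690 probe sets, 64 controls were left out; 20380 carried 1 symbol, 691 several and 1555 none. Signals were taken as log2(signal + 6), 6 being the rounded 10th percentile, and filtered at the 40th percentile. They were fitted with limma 3.58.1 in R 4.3.3 (variance trend, Benjamini-Hochberg over 13575 probe sets, two-sided). This step was run on simulated data with changes larger than those of the members, so that its power for changes of their size was not tested. No detection calls were used, and the number of arrays limits the precision. Within-array differences and correlations used exact permutation. The planned receptor balance of Ednrb and Ednra, and Ednra against smooth muscle, were not run because Ednra had no matched probe set. Members and lists were chosen with earlier results of these data known. Named were all member probe sets and, per pathway sublist, the 2 genes of smallest p by their probe set of highest mean; others named were chosen after their values were seen. Irag1 was matched by gene ID, as Mrvi1. Alternatives were each array left out, a replicate block, array weights, 1 value per gene, quantile normalization or equal medians, a robust variance model, no variance trend, pseudocounts of 1 and 20, and a filter at the 60th percentile or no filter. Python 3.11.15 made the tables.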

Additional observations from a re-analysis of the deposited data

How the results depend on the processing

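The count of member probe sets past the threshold stayed at 0 in limma under the 18 alternatives run, as did that of the 85 further probe sets of the pathways. Over the whole array the count of 10 was 6 without a filter, 5 without a variance trend, 5 with the replicate number as a block and 6 with the mean of the probe sets of a gene. Leaving out single arrays gave 5 to 16. High fat replicate 1 left out gave 16, high fat replicate 2 gave 5, the third of that diet gave 6, and chow replicate 2 gave 5. Same-numbered deviations correlated at 0.03, 0.17 and -0.11, and differently numbered ones at -0.16 to 0.14. With each diet's mean taken out of 3 arrays, these values cannot decide whether the replicate numbers pair the pools. The replicate block changed no call of a member. With it 2 member probe sets had an unadjusted p under 0.05 in limma, against 1 without it. Small differences changed sign. The second Ece1 probe set had 0.024 with array weights, and the tested Ednrb probe set had -0.039 with quantile normalization, -0.029 with equal medians and -0.054 with array weights. Without single arrays, log2 fold changes ran from -0.18 to 0.26 for Edn1, from -0.16 to 0.10 for the second Ece1 probe set and from -0.14 to 0.10 for Ednrb. The Gucy1a1 minus Gucy1b1 difference was -0.0069 with quantile normalization and ran from -0.27 to 0.27 without single arrays, and Gucy1a1 minus the smooth muscle mean ran from -0.50 to 0.091. The causes were not tested. Low signals limit what can be said of Ednrb.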
